A study of Mus musculus with 2 samples.

Results

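The genes of cholesterol synthesis, uptake and efflux are 31 mouse genes, chosen by name from what their proteins are known to do and matched by symbol to the deposited gene tables. All 31 were found, among 43346 mouse gene identifiers. They comprise 19 enzymes of synthesis (8 of the mevalonate steps and 11 of the sterol steps), 4 regulators and 8 genes of transport and storage. The measurement is polyadenylated RNA of adipose tissue from a male C57BL/6J mouse aged 10 weeks. It was made as 2 technical libraries of 1 biosample, with no treatment named, so there is 1 group and no condition to compare. Library 2 was made at a later date, after the publication the labels cite, so library and date cannot be told apart. Levels are TPM, deposited values that are per transcript length and sum to the same total in each library, and every SD is the technical spread of n = 2 libraries.

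Cells make cholesterol from acetyl-CoA: the mevalonate steps build isoprenoid units, the sterol steps join them into squalene and fold it into lanosterol, and a chain of enzymes then trims lanosterol to cholesterol. The transcription factor encoded by Srebf2 is held in the endoplasmic reticulum with Scap by the Insig proteins while sterols are plentiful, and is released to turn on the synthesis genes when they run low. Fat tissue is one of the large cholesterol stores of the body, held mostly unesterified at the lipid droplet, and fat cells exchange cholesterol with lipoproteins through uptake, lysosomal export and the efflux pumps of the ABC family.

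Expected counts, the authors' estimates of reads per gene, summed to 19954869 in library 1 and 19256809 in library 2. The TPM share of the mitochondrial genes and their copies on chromosome 1 was 51.7% in the first library and 15.9% in the other, so a level can be higher in TPM and not in the ratio of counts scaled across genes. All 8 adipocyte markers reached 1 TPM in each library, with summed levels of 6695 and 10897 TPM. All 6 epididymis markers reached it too, at 30013 and 36034 TPM, and so did all 6 macrophage markers, at 95.96 and 375 TPM, and all 5 testis germ cell markers, at 205 and 1116 TPM. Of the 5 markers of steroid-making cells 4 did so in both, and of the 5 of hepatocytes and enterocytes 2 did, and no marker of any list was at 0. Markers of several tissues were thus present, and the part of each cell type in the levels below was not tested. In bulk tissue, fewer cells of a type and less RNA per cell cannot be told apart.

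The ratio between the libraries was graded by base composition, and 3 coding stretches show the range among these genes. They are 90 bases each, taken from the coding sequence of the GENCODE M21 transcripts Idi1-201, Ebp-201 and Mvd-201 at a place where the composition is close to that of the whole coding sequence. Capitals mark G and C. Idi1 has the lowest GC content of the 31 genes over its annotated transcripts, Ebp the median and Mvd the highest.
Idi1: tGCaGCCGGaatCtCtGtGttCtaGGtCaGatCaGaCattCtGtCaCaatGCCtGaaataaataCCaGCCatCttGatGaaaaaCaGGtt
Ebp: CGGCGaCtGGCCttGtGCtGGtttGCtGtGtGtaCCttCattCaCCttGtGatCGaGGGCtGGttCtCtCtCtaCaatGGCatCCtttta
Mvd: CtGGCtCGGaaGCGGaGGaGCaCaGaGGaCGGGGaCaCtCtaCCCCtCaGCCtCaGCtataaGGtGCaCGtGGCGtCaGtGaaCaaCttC
Of the 90 bases, 38 are G or C in Idi1, 46 in Ebp and 54 in Mvd. Over all annotated transcripts the GC content is 41.1% for Idi1, 49.2% for Ebp and 59.2% for Mvd. Their levels in libraries 1 and 2 were 41.1 and 32.2 TPM for Idi1, 21.3 and 52.4 TPM for Ebp, and 0.07 and 15.8 TPM for Mvd.

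The median of the synthesis genes stood above that of the transport and storage genes in both libraries. The 19 synthesis enzymes had medians of 23.3 and 42.7 TPM in libraries 1 and 2, against 7.98 and 10.6 TPM for the 8 transport and storage genes and 4.32 and 10.49 TPM for all 18275 genes tested. The median of synthesis was thus 2.92-fold that of transport in library 1 and 4.04-fold in library 2. Among protein-coding genes tested, the median synthesis enzyme stood at percentile 79.7 in library 1 and 80.5 in library 2, and the median transport gene at percentile 58.2 and 45.1. Both groups spread widely, from 0.07 to 108 TPM for synthesis and from 0.03 to 147 TPM for transport in library 1. Within classes of GC content the order was not the same throughout. Under 48% GC, the median of 8 synthesis enzymes was 47.5 and 38.4 TPM and that of 4 transport genes 11.04 and 11.06 TPM, a ratio of 4.30-fold and 3.47-fold. At 52% GC or more, 7 synthesis enzymes had medians of 4.23 and 61.7 TPM and 3 transport genes 0.42 and 1.03 TPM. Between these limits the order was the opposite, with 21.5 and 41.3 TPM for 4 synthesis enzymes beside 147 and 708 TPM for Npc2, the only transport gene there. The 8 transport genes include Soat2 and Npc1l1, which were near 0. A list of 15 other transport and turnover genes, described below, had medians of 7.85 and 27.6 TPM. The size of the gap in library 2 thus depended on the transport genes chosen. These are descriptions of chosen genes in 1 biosample, with no test.

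The sums tell the groups apart less, because 1 transport gene was very abundant. Transport genes summed to 235 TPM in library 1 and 794 TPM in library 2, beside 640.5 and 978 TPM for synthesis. Npc2 alone made 62.7% and 89.2% of the transport sum. Without it the other 7 transport genes summed to 87.6 and 85.6 TPM. Of the 31 genes 27 reached 1 TPM in each library, and 17 reached 10 TPM. The exceptions at 1 TPM were Mvk, Mvd, Npc1l1 and Soat2.

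**Figure D1:**
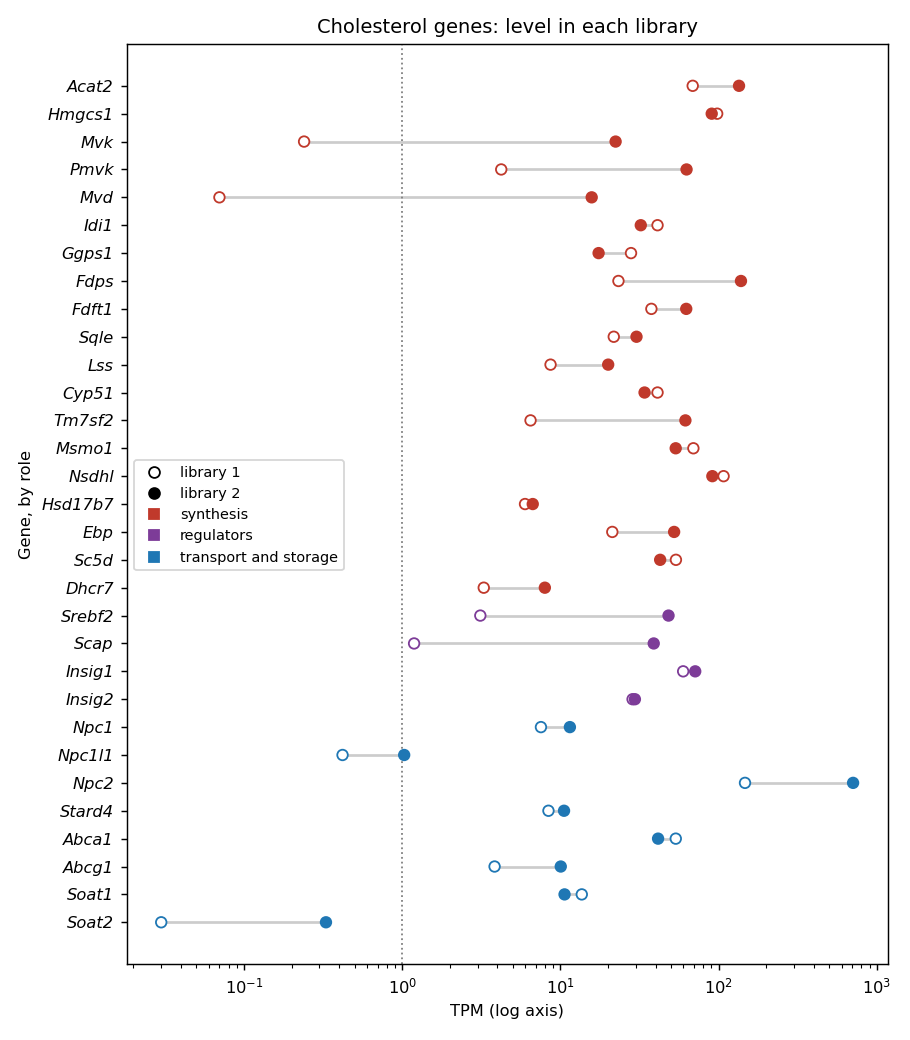
Level of each of the 31 genes in TPM on a log axis, by role, with 1 point for each library (n = 2 technical libraries). The pairs lie close for genes such as Hmgcs1 (97.99 and 90.5 TPM) and far apart for Mvk, Mvd, Pmvk, Srebf2 and Scap, which are lower in library 1.

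The rounded expected counts of the libraries, scaled by TMM, were compared with an exact binomial test (two-sided), with Benjamini-Hochberg adjustment over all 18275 genes. It compares these 2 libraries and covers counting error only. A gene was called at an adjusted p below 0.05 and at least 2-fold, and the log2 ratio is library 2 over library 1, with a 95% Clopper-Pearson interval. Of the 31 genes 9 were called higher in library 2, which is 29% where 30.1% of all genes tested were, and 5 lower, which is 16.1% where 18.4% were. In either direction 48.5% of all genes were called. The members' counts were thus near the background. After the median ratio at each GC content was subtracted, 6 were still called higher, 19.4% of the members against 9.18% of all genes, and 0 lower against 8.55%, where 17.7% of all genes were called in either direction. The 6 were Mvk, Pmvk, Mvd, Fdps, Scap and Npc2. All 5 lower calls and 3 of the higher calls were lost, and no gene was newly called. That removal used the GC content of all annotated transcripts of a gene. With the GC content of the transcripts weighted by their counts, 4 members were called higher, 12.9% against 7.86% of all genes, and 0 lower against 7.37%. Those 4 were Mvk, Mvd, Fdps and Npc2.

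The direction of a call went with GC content in these genes. Of the 14 members under 48% GC, 5 were called lower and 0 higher, with log2 ratios from -1.42 to -0.13 and a median of -0.83. All 7268 tested genes of that class had a median of -0.94, and 42.7% of them were called lower and 0.91% higher. Of the 12 members at 52% GC or more, 8 were called higher and 0 lower, with a median of 2.50, where all genes of that class had a median of 1.90 and 71.7% were called higher. Across the 31 genes, Pearson's r between GC content and the log2 ratio was 0.893 and Spearman's rho 0.919, given as a description, since the genes share both libraries. The values over the 12045 tested genes with at least 100 counts on average were 0.823 and 0.893. The ratio thus followed composition in these genes much as it did elsewhere.

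**Figure D2:**
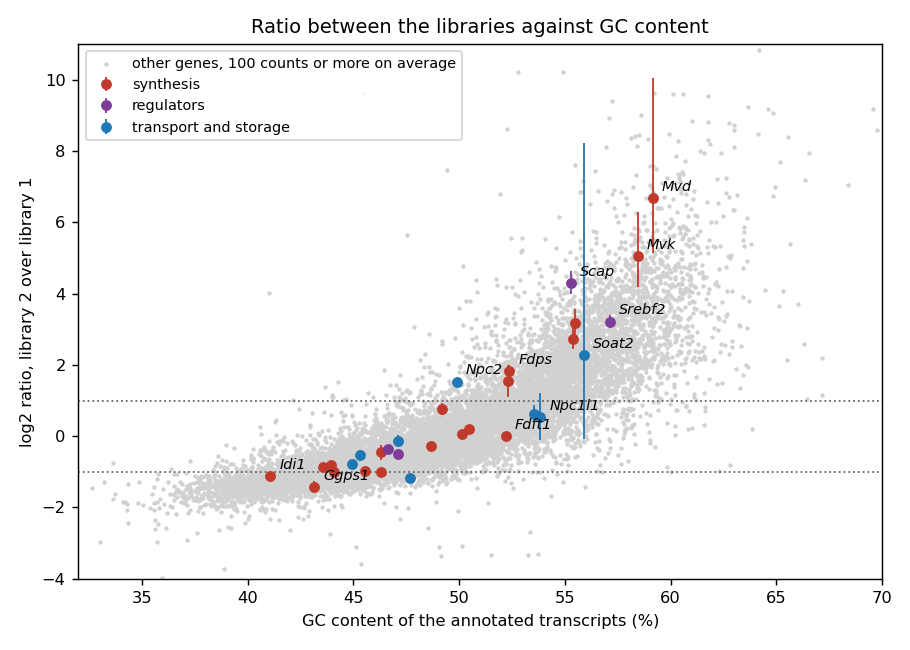
Log2 ratio of library 2 over library 1 against GC content in percent, with grey points for all tested genes of at least 100 counts on average (11 lie outside the axes) and coloured points with 95% counting intervals for the 31 genes. The ratios of the members rise with GC content as those of all genes do, from Ggps1 at -1.42 to Mvd at 6.67. Mvd (by 3.13), Scap (2.44), Mvk (1.73) and Npc2 (1.46) lie furthest above the median ratio at their GC content as drawn. With GC weighted by counts Scap lies 0.75 above it.

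The mevalonate steps held near-equal pairs of levels and the least equal ones of the set. Hmgcs1, which makes HMG-CoA (chromosome 13, 119690379 to 119708260, plus strand, GRCm38), was at 97.99 and 90.5 TPM, or 94.3 ± 5.28 TPM. It was the highest of the mevalonate enzymes in library 1. Its scaled counts were lower in library 2, at a log2 ratio of -0.85 (-0.92 to -0.79), below the 2-fold limit, and 0.17 after GC removal. Acat2, the thiolase that makes acetoacetyl-CoA, was at 68.6 and 135 TPM, and its counts gave a log2 ratio of 0.21, below the 2-fold limit. Part of its reads is shared with other genes, since its counts were fractional, and the same holds for Idi1, Fdps, Fdft1 and Tm7sf2, whose values are uncertain to that extent.

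The 3 enzymes that turn mevalonate into isopentenyl diphosphate had much lower levels in library 1 than in library 2. Mvk, mevalonate kinase (chromosome 5, 114444269 to 114460591, plus strand), had 9 and 414 counts, or 0.24 and 22.4 TPM. Its log2 ratio was 5.06 (4.20 to 6.28), and 1.73 after GC removal. Pmvk, phosphomevalonate kinase, was at 4.23 and 62.8 TPM, with a log2 ratio of 3.18. After GC removal it was 1.24 and called, and with GC weighted by counts 0.80 and not called. Mvd, the decarboxylase that follows it (chromosome 8, 122433601 to 122443422, minus strand), had 2 counts in library 1 and 333 in library 2. Its log2 ratio was 6.67 (5.13 to 10.04), and 3.13 after GC removal. The values of Mvk and Mvd rest on so few counts in library 1 that their levels are known from library 2 alone. These 3 genes have a GC content of 55.5% or more, where the GC-removed ratio of all genes was also widest, with quartiles of -0.99 and 0.91 at 55% GC or more.

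The isoprenoid enzymes that follow differed in the direction of their calls. Their GC content was 41.1% for Idi1, 43.2% for Ggps1 and 52.4% for Fdps. Idi1, the isomerase of isopentenyl diphosphate, was at 41.1 and 32.2 TPM, and was called lower at a log2 ratio of -1.11, which was 0.15 after GC removal. Ggps1, which makes geranylgeranyl diphosphate for protein prenylation, was at 28.0 and 17.4 TPM, and was called lower at -1.42, or -0.36 after removal. Fdps, farnesyl diphosphate synthase, was at 23.3 and 139 TPM, and was called higher at 1.83. It was still called after removal, at 1.05, and at 1.22 with GC weighted by counts. Fdps was the highest of the 19 synthesis enzymes in library 2 and stood at their median in library 1.

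The first committed sterol steps showed smaller ratios of counts than the mevalonate kinases. Fdft1, squalene synthase, was at 37.6 and 62.5 TPM, with a log2 ratio of -0.01 (adjusted p = 0.915 by the binomial test). After GC removal it was -0.75, and -0.09 with GC weighted by counts, not called in either. Sqle, squalene epoxidase, was at 21.8 and 30.3 TPM, with a log2 ratio of -0.28. Lss, which folds the epoxide into lanosterol, was at 8.67 and 20.1 TPM, with a log2 ratio of 0.05 (adjusted p = 0.453). None of the 3 reached 2-fold. Fdft1 overlaps exons of Ctsb on the opposite strand by 774 bases, and Ctsb was at 100.2 and 296 TPM. Whether the counting used strand is not given in the sources used here, so reads of the pair cannot be told apart. The same holds for Cyp51 and Akap9, Ggps1 and Arid4b, and Npc1 and Rmc1.

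The enzymes that strip the methyl groups from lanosterol had TPM levels close to each other in the libraries, while scaled counts of several were about 2-fold lower in library 2. Nsdhl, the sterol dehydrogenase on the X chromosome, was at 108 and 91.4 TPM (99.5 ± 11.5 TPM), and had the highest mean of the sterol steps. Its log2 ratio of scaled counts was -0.98 (1.97-fold lower in library 2), just under the limit for a call. Msmo1, the methyl oxidase that acts before it, was at 69.3 and 53.6 TPM (61.5 ± 11.1 TPM), and was called lower at a log2 ratio of -1.001. Cyp51, lanosterol demethylase, was at 41.1 and 34.1 TPM (37.6 ± 5.01 TPM), and was called lower at -1.01. Both lower calls lay at the 2-fold limit, and after GC removal the log2 ratios were -0.05 for Msmo1 and -0.36 for Cyp51. Hsd17b7, the keto reductase of the same complex, was at 5.98 and 6.69 TPM (6.34 ± 0.502 TPM). Its scaled counts were lower in library 2, below the 2-fold limit, at a log2 ratio of -0.46 (-0.66 to -0.25), and 0.19 after GC removal. Tm7sf2, a sterol reductase, was the exception, at 6.48 and 61.7 TPM, and was called higher at a log2 ratio of 2.72, and 0.84 after removal. It shares 532 exonic bases on its own strand with Vps51, which was at 5.20 and 31.1 TPM.

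The last steps to cholesterol were also measured. Ebp, which moves the double bond of the sterol ring, was at 21.3 and 52.4 TPM, with a log2 ratio of 0.76. Sc5d, the desaturase after it, was at 53.8 and 42.7 TPM, with a log2 ratio of -0.81. Dhcr7, the last reductase of that route, was the lowest of the sterol steps in library 1 at 3.28 TPM and reached 7.98 TPM in library 2. Its counts were called higher at a log2 ratio of 1.54, which was 0.77 after removal. Over the 11 sterol steps, with a median GC content of 48.7%, the median log2 ratio was -0.28, with 2 called higher and 2 lower. For the 8 mevalonate steps, with 51.4%, it was 1.02, with 4 called higher and 2 lower. Of all genes tested 30.1% were called higher and 18.4% lower. After GC removal the median ratios were -0.05 and 0.61. The 4 synthesis enzymes still called, 3 with GC weighted by counts, were of mevalonate steps, where 9.18% and 7.86% of all genes were called higher. Among them, Mvk and Mvd had 9 and 2 counts in library 1. The difference between these step groups was not tested.

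Among the 4 regulators, both genes of the pair that activates synthesis were called, and neither gene of the pair that retains it was. The first pair, Srebf2 and Scap, has a GC content of 57.1% and 55.3%, and Insig1 and Insig2 have 47.1% and 46.6%. Srebf2 (chromosome 15, 82147181 to 82205379, plus strand) was at 3.12 and 48.3 TPM, with a log2 ratio of 3.21 (3.03 to 3.40). Scap, its escort and sterol sensor (chromosome 9, 110333288 to 110384950, plus strand), was at 1.19 and 38.9 TPM, with a log2 ratio of 4.29 (3.98 to 4.63). Both were called higher, as were 86.3% of all genes at 55% GC or more. After GC removal Srebf2 was at 0.62 and not called, and Scap at 2.44 and called, but the value of Scap rests on the GC content used. Its annotated transcripts have 55.3% GC together, while Scap-201, which took 100% of its TPM in both libraries, has 59.1%. With GC weighted by counts neither was called, at 0.75 for Scap and 0.26 for Srebf2. Insig1 was at 59.7 and 71.2 TPM and Insig2 at 28.6 and 29.6 TPM. Their scaled counts were lower in library 2, below the 2-fold limit, at log2 ratios of -0.49 (-0.57 to -0.41) and -0.37 (-0.51 to -0.24). In library 1 both Insig genes thus lay above Srebf2 and Scap, and in library 2 Srebf2 and Scap lay between Insig1 and Insig2. The order of the regulators by level therefore depended on the library.

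**Figure D3:**
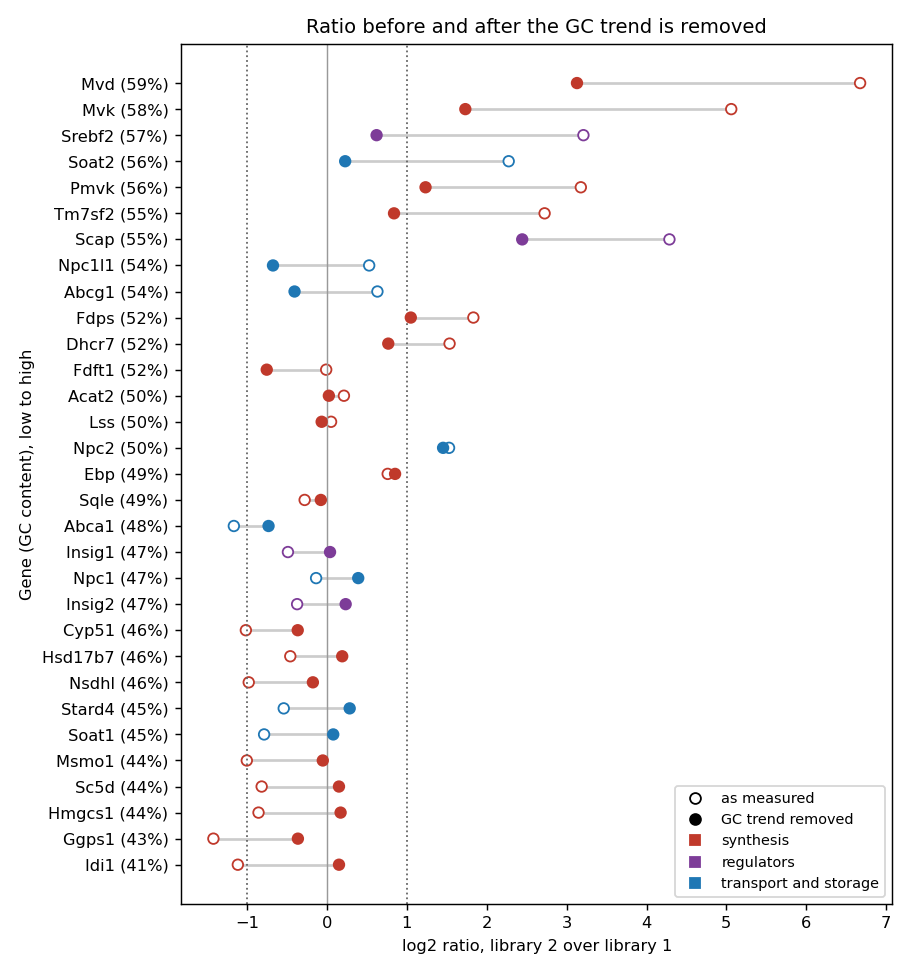
Log2 ratio of library 2 over library 1 for each of the 31 genes before and after subtraction of the median ratio at its GC content. With the GC content of all annotated transcripts, as drawn, Mvd (3.13), Scap (2.44), Mvk (1.73), Npc2 (1.46), Pmvk (1.24) and Fdps (1.05) stay past 1, but with GC weighted by counts Scap is at 0.75 and Pmvk at 0.80.

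Npc2 was the most abundant gene of the set in both libraries. It encodes the small protein that hands cholesterol to Npc1 in the lysosome, and it is also known as a secreted protein of the epididymis. Npc2 (chromosome 12, 84754562 to 84773152, minus strand) had 7728 and 29179 expected counts, or 147 and 708 TPM. The log2 ratio was 1.53 (1.49 to 1.57), and it was the only called member between 48% and 52% GC, where 11.9% of all genes were called higher. Its GC content is 49.9%, and removal of the GC trend left the ratio at 1.46, or 1.11 with GC weighted by counts. All 6 marker lists had a higher summed TPM in library 2, epididymis and macrophage among them, and 70.7% of all genes tested had a higher TPM there. Of the 6 epididymis markers 2 were called lower, at 36.7% and 41.6% GC, and 1 higher, at 53.6%. Of the 6 macrophage markers 4 were called higher, at 53.6% to 59.5% GC, and 1, Mrc1, lower, at 41.3%. Of all genes at 52% GC or more 71.7% were called higher, and of those under 48% GC 42.7% were called lower. The part of these cell types in the level of Npc2 was not tested.

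The other transport genes were an order of magnitude lower, apart from Abca1. Abca1, the pump that loads cholesterol onto apolipoprotein acceptors, was at 53.7 and 41.5 TPM (47.6 ± 8.61 TPM). It was called lower at a log2 ratio of -1.16, which was -0.73 after removal. Abcg1, the pump that loads cholesterol onto HDL particles, was at 3.84 and 10.06 TPM, with a log2 ratio of 0.63. The level of Abca1 lay above that of Abcg1 in both libraries. Npc1, the lysosomal membrane transporter, was at 7.54 and 11.5 TPM, and Stard4, a cytosolic sterol carrier, at 8.41 and 10.6 TPM. Their log2 ratios were -0.13 (-0.29 to 0.02) and -0.54 (-0.70 to -0.38), both below the 2-fold limit. The mean levels of Npc1 and Stard4 were close, at 9.515 ± 2.79 and 9.48 ± 1.51 TPM, with no test between the genes.

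Storage and dietary uptake were each represented by genes with known tissue patterns. Soat1, the widely expressed enzyme that esterifies cholesterol, was at 13.7 and 10.6 TPM, with a log2 ratio of -0.78. Soat2, its relative of liver and intestine, had 1 and 9 counts, or 0.03 and 0.33 TPM, and its log2 ratio of 2.28 had an interval from -0.07 to 8.24. Npc1l1, the cholesterol uptake protein of the intestine, had 31 and 59 counts, or 0.42 and 1.03 TPM, with a log2 ratio of 0.53. Neither was called. The 5 markers of hepatocytes and enterocytes summed to 8.93 and 15.7 TPM in the same libraries.

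The order of the transport genes was kept more closely between libraries than that of the synthesis enzymes. The Spearman rho of TPM between libraries was 0.929 over the 8 transport genes and 0.587 over the 19 enzymes, against 0.629 over the 12045 genes with at least 100 counts on average. The 8 transport genes include Soat2 (1 and 9 counts) and Npc1l1 (31 and 59 counts), which lie below that limit of 100. They also span a narrower GC content, 44.9% to 55.9%, than the enzymes, 41.1% to 59.2%. The rho values are descriptions over few genes, with no test. Of the 31 genes 22, or 71.0%, had a higher TPM in library 2, as had 70.7% of all genes tested.

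The deposited transcript tables divide each gene's reads among its annotated forms, and the shares below are of TPM, in which a short form weighs more than in counts. Of the members, 19 had several annotated transcripts and at least 50 counts in both libraries. In 6 of them, or 31.6%, the transcript leading by TPM differed between libraries, and among 8334 protein-coding genes of that kind 31.7% did. In 5 of the 19, or 26.3%, the share of the gene's TPM in protein-coding transcripts was at least 20 points lower in library 1, against 16.0% of all such genes. In 0 of them was it lower in library 2, against 4.55%.

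The 5 genes with the lower coding share in library 1 were sterol-step enzymes and Insig2. The coding share was 40.5% and 86.3% for Dhcr7, 0% and 33.7% for Lss, 37.0% and 69.1% for Ebp, 51.2% and 81.3% for Tm7sf2, and 75.3% and 98.01% for Insig2. In Lss, Tm7sf2, Ebp and Dhcr7 the transcript leading by TPM was a form with a retained intron in library 1 and a coding one in library 2. That is 4 of 19, or 21.1%, against 4.82% of all such genes, with no test of the difference. By expected count it held in Tm7sf2 alone, 1 of 19 or 5.26%, against 3.46%. In library 1 the leading coding forms of Ebp and Dhcr7 had 210 and 36.0 counts, above the 187 and 12.0 of their leading retained-intron forms. In library 2 Lss-204 had 597 counts, above the 406 of Lss-201. In Lss, the retained-intron form Lss-204 took 70.9% in library 1, and the coding form Lss-201 led in library 2 with 33.7%. The expected counts of Lss were near equal after scaling, while its coding form was estimated only in library 2.

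The form leading by TPM in library 1 usually had the lower GC content. Lss-204 has 48.7% GC and Lss-201 52.2%, and Ebp-202 has 45.7% and Ebp-201 50.9%. In Pmvk, where both leading forms are coding, Pmvk-203 with 52.9% GC led in library 1 and Pmvk-201 with 57.0% in library 2. The form leading in library 1 had the lower GC content in 5 of the 6 genes that switched, against 78.3% of 2533 switching genes. The exception was Sc5d, where Sc5d-202 with 45.4% GC led in library 1 and Sc5d-201 with 42.9% in library 2. Sc5d-201 has 2249 bases as deposited and 4787 in GENCODE M21, the source of its GC content. The GC content of the form that was quantified may thus differ, and the exception is uncertain. The shares are estimates that divide reads between overlapping forms.

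**Figure D4:**
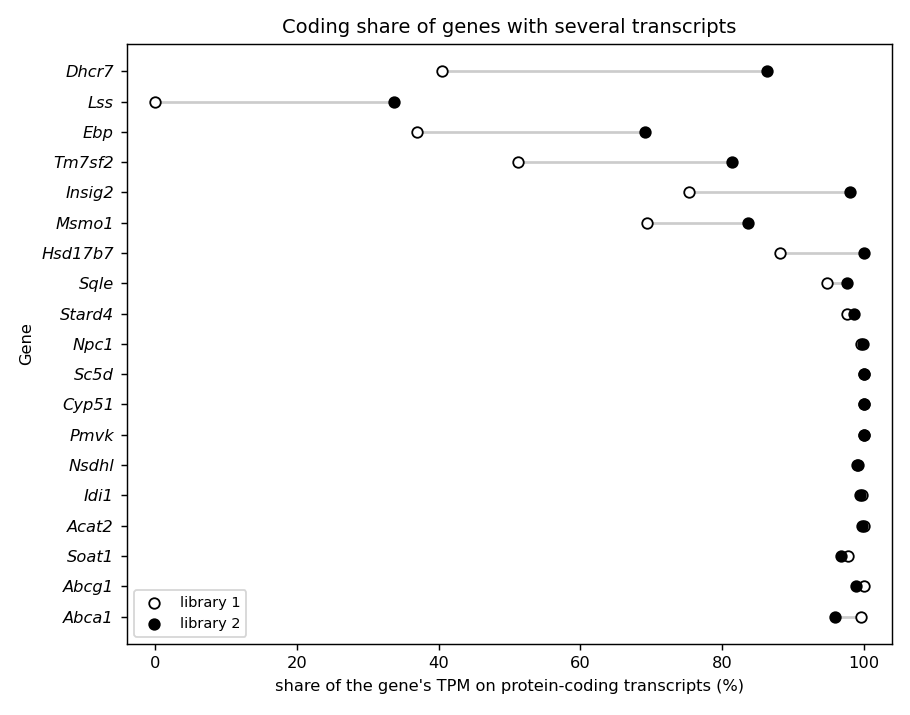
Share of each gene's TPM in protein-coding transcripts, in percent, in library 1 and library 2, for the members with several annotated transcripts and at least 50 counts in both. Most lie near 100% in both, while Lss (0% and 33.7%), Ebp, Dhcr7, Tm7sf2 and Insig2 have a lower share in library 1.

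The promoters of these genes share sequence letters that the choice of members did not use, and 2 are shown because they hold matches to motifs of sterol genes. RefSeq promoters of GRCm38.p6 had entries for 24 of the 31 genes. Fdft1, Sqle, Fdps, Abcg1, Soat2, Stard4 and Npc1 had none. The 250 bases before each start were searched on both strands. Capitals mark TCACCCCAC and a CCAAT box (read as ATTGG on the opposite strand) in Hmgcs1 (chr13:119690154-119690282, plus strand), and CACGTG and a CCAAT box in Hsd17b7 (chr1:169969283-169969408, minus strand).
Hmgcs1: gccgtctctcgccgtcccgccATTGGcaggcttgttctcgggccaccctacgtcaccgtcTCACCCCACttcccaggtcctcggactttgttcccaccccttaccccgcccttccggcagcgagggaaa
Hsd17b7: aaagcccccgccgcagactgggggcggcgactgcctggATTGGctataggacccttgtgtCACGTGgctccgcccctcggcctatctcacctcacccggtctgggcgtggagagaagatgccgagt
The match in Hmgcs1 lies from -137 to -129 of the start and that in Hsd17b7 from -143 to -138. In neither sequence do the marked motifs overlap.

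CCAAT was the most shared motif among the promoters. It was found in 21 of 24 members, or 87.5%, in 37.5% of all 27025 genes with a promoter entry and in 40.4% of 9697 expressed protein-coding genes. A gene was counted if any of its promoters held the motif. CCAAT was in 15 of 16 synthesis enzymes, and the members without it were Abca1, Acat2 and Scap. GGGCGG, the GC box, was found in 20 of 24, or 83.3%, against 35.4% of all and 61.7% of expressed genes. CACGTG, the E-box, was found in 6 of 24 (Abca1, Dhcr7, Hsd17b7, Insig1, Sc5d and Scap), or 25%, against 6.86% and 9.62%. TCACNCCAC, a form of the sterol regulatory element to which the Srebf2 protein binds, was found in Hmgcs1 alone, 1 of 24, against 1.22% of all and 1.24% of expressed genes. A form of the LXR element, AGGTCA repeated after 4 bases (DR4), was in 0 of 24. These are matches of letters, with no test, and no match says only that these letters are not in this window.

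Other genes of the pathway, 31 by name of which 30 matched, were measured beside the members. Of the 30, 14 were called higher in library 2, where 30.1% of all genes were, and 2 lower (Nus1 and Mbtps2), where 18.4% were. Their median GC content was 52.1%, and 71.7% of all genes at 52% GC or more were called higher. After GC removal 9 were called higher and 1 lower (Gramd1a), against 9.18% and 8.55% of all genes. That removal used the GC content of all annotated transcripts, and ratios with GC weighted by counts are not given for these genes. In the list of sterol-side genes, Srebf1, which encodes the relative of Srebf2 that drives fatty acid synthesis, was at 5.38 and 152 TPM. The protease gene Mbtps1, whose product cuts the SREBP proteins, was at 18.2 and 64.1 TPM, and Nr1h2, which encodes LXR-beta, the sterol-sensing receptor that turns on Abca1 and Abcg1, at 3.08 and 77.4 TPM. All 3 were called higher, among 4 higher and 1 lower of 7 genes. Mbtps1, at 51.4% GC, had a log2 ratio of 1.08, which was 0.65 after GC removal and not called. Srebf1 and Nr1h2 have a GC content of 59.4% and 60.9%, a range in which most genes were called higher (86.3% at 55% GC or more), and their log2 ratios after GC removal were 1.90 and 1.42.

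Of 8 genes in branches that draw on the isoprenoid pool, with a median GC content of 47.7%, 2 were called higher and 1 lower, and 0 after GC removal. Of all genes 30.1% were called higher and 18.4% lower, and after GC removal 9.18% and 8.55%. Fnta, a subunit of the enzymes that prenylate proteins, was at 41.7 and 48.9 TPM, Nus1, of dolichol synthesis, at 39.4 and 29.4 TPM, and Coq2, of ubiquinone synthesis, at 10.8 and 45.5 TPM. In the list of transport and turnover genes, with a median GC content of 53.2%, 8 of 15 were called higher and 0 lower, beside those 30.1% and 18.4% of all genes. After GC removal 5 were called higher and 1 lower, beside 9.18% and 8.55%. Lrp1, a large endocytic receptor for lipoproteins, was at 11.5 and 157 TPM, Abca2, a lipid transporter of endolysosomes, at 8.10 and 171 TPM, and Gramd1b, which carries cholesterol from the plasma membrane to the endoplasmic reticulum, at 26.7 and 58.9 TPM. Gramd1b was not called, with a log2 ratio of -0.05.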

How the data were processed

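The authors deposited expected counts, TPM and FPKM per gene and per transcript, per the file headers, and each transcript's share of its gene's TPM as a percent. The assembly is mm10 with annotation M4, per the deposited text, and neither aligner, quantifier nor use of strand is given in the sources used here. Symbols, positions, transcripts and GC content (all annotated transcripts of a gene) came from GENCODE M21, and promoters from RefSeq. Of 69691 entries, 43346 are mouse genes. The other 26345, with 0 and 2 counts in all, were not used.

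Expected counts were rounded. The 18275 genes with at least 10 counts over both libraries were tested as stated beside the results. A comparison of 1 library with 1 library has no residual degrees of freedom and so no replicate check. Before log2 ratios were taken, 0.5 was added to the counts. Reads carry no molecular identifiers, so they may repeat molecules, and intervals cover counting error only. Counts not whole within 0.005 in either library were taken as shared. The GC trend was the median log2 ratio in 40 GC bins over genes averaging at least 100 counts, and GC content was known for 99.3% of tested genes. A variant weighted the GC content of transcripts by their expected counts over both libraries. Some transcripts differ in length between the deposited annotation and M21, such as Ggps1-201 with 2367 and 4244 bases. For these the GC content used, in both removals, may not be that of the form quantified. All 31 members are named, and of the other pathway genes the 3 highest in mean TPM per list and the called exceptions. Members and lists were chosen with earlier results of these data known, and the GC classes, the retained-intron count and the motifs after the data were seen. Alternatives were other scalings, filters, posterior means, FPKM, an edgeR exact test and detection limits. Versions were Python 3.11.15 with scipy 1.17.1, pandas 2.3.3 and numpy 2.4.6, and R 4.3.3 with DESeq2 1.42.0 and edgeR 4.0.16.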

Additional observations from a re-analysis of the deposited data

How the results depend on the processing

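Scaling and composition set most of what changed. The 5 lower calls among the members became 0 with total counts, 3 without a filter on low counts and 0 after GC removal. With the trend taken on GC weighted by counts, members called were 4 higher (9 before) and 0 lower, all genes 1430 and 1341, and the median log2 ratios 0.19 for synthesis and -0.0092 for transport. Over all genes, the 5504 higher calls became 1665 after GC removal, and the 3361 lower calls 1176 with total counts and 1552 after GC removal. Total counts raised every log2 ratio by 0.44, and higher calls were 62.1% of all calls with TMM, 85.2% with total counts and 51.8% after GC removal. The median log2 ratio of synthesis, -0.01, was 0.43 with total counts and 0.15 after GC removal, and that of transport, 0.20, was 0.64 with total counts. Directions turned after GC removal for Hmgcs1 (0.17), Idi1 (0.15), Lss (-0.0642), Hsd17b7 (0.19), Sc5d (0.15), Insig1 (0.0405), Insig2 (0.24), Npc1 (0.39), Npc1l1 (-0.67), Stard4 (0.29), Abcg1 (-0.40) and Soat1 (0.0807). With GC weighted by counts they turned for Hmgcs1 (0.19), Idi1 (0.0474), Hsd17b7 (0.53), Sc5d (0.20), Insig2 (0.30), Npc1l1 (-0.67), Stard4 (0.44), Abcg1 (-0.21) and Soat1 (0.19). With total counts they turned for Fdft1 (0.43), Sqle (0.16), Insig2 (0.0676) and Npc1 (0.31), and with DESeq2 size factors for Fdft1 (0.00033). Of the 31 calls 30 were the same with DESeq2 size factors and with posterior means, 29 without the filter and 23 with total counts. All 31 were the same with the edgeR exact test at a preset dispersion of 0.01. That test used the same counts, scaling and 2-fold limit, so it is not an independent check. The median level of synthesis, 36.7 TPM over both libraries, was 53.2 TPM when rescaled without mitochondrial genes and 23.3 to 42.7 TPM with 1 library left out. That of transport, 9.50 TPM, was 7.25 in FPKM, 14.8 TPM rescaled and 7.98 to 10.6 TPM with 1 library left out. The mean transport sum of 514 TPM was 86.6 TPM without Npc2. Members detected were 27 to 30 with 1 library left out, and 22 of 31 at 5 TPM. Rescaling, GC weighted by counts and leaving out Npc2 were chosen after seeing the data, and the cause of each change was not tested. No paired analysis was possible because the labels hold 1 group.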
